A study of Ogataea parapolymorpha DL-1 with 4 samples.

Results

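Near the right end of chromosome II of the methylotrophic yeast Ogataea parapolymorpha DL-1 lie 7 genes whose expression was followed across strains and media. The 7 are here called the cluster oxygenases, though the products of only 4 name an oxygenase or hydroxylase. They were picked by locus tag from the rows of chromosome II beyond position 950000, and they are 7 of the 5448 rows of the deposited table. The choice was made with their values in all 4 libraries known, so the differences given here describe the genes and are not evidence for them as a group. The groups were the met4 mutant (genotype leu2 met4::LEU2) in B medium, the same mutant in B medium with 0.5 mM cysteine, the wild type (leu2 carrying LEU2) in B medium, and the wild type in B medium with 0.5 mM cysteine. Both strains have the DL-1 background and share the leu2 lesion, which LEU2 complements. Rich-medium cultures inoculated to an OD600 of 0.1 were collected at 0.3 and kept for 2 h in B medium, described as sulfur-limited, or in that medium with cysteine. Each group held 1 library, so no value has an error, no difference has a replicate behind it and no test was made.

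Cells that lack sulfate or cysteine can draw sulfur from organic compounds such as sulfonates, sulfate esters and sulfides. Several enzyme families that do this in bacteria and fungi are oxygenases, which use molecular oxygen to open the bond between carbon and sulfur. Flavin-dependent monooxygenases and iron-dependent dioxygenases that consume 2-oxoglutarate are both known for it. In budding yeast, the transcription activator Met4 switches on sulfate assimilation and related genes when sulfur is short.

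The name oxygenase fits 4 of the 7 by annotation, each after its closest described protein in another organism. FMO GS-OX1 (HPODL_05054) is named for a flavin-containing monooxygenase that oxidises the sulfur of glucosinolates in Arabidopsis. The row dmoA (HPODL_05068) is named for the bacterial monooxygenase that splits dimethyl sulfide with reduced flavin. The row nahG (HPODL_05069) carries the name of the bacterial flavoprotein that converts salicylate to catechol, and ANS (HPODL_05070) that of a plant dioxygenase of anthocyanin synthesis. Of the other members, YKJ6_SCHPO (HPODL_05062) is described as an uncharacterized oxidoreductase and mug14 (HPODL_05059) as a meiotically up-regulated protein, both after fission yeast, while HPODL_05063 has no product. Substrates in O. parapolymorpha are not given for any of them.

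The 7 genes span 33684 bases, from 954478 to 988161, and 11 of the 14 other rows of the stretch lie between them, with 2 before FMO GS-OX1 and 1 after ANS. In map order, FMO GS-OX1 occupies 954478 to 956019 on the plus strand, mug14 968771 to 969664 on the minus strand and YKJ6_SCHPO 974031 to 975110 on the minus strand. HPODL_05063 follows at 975283 to 976467 on the plus strand, 172 bases from YKJ6_SCHPO and pointing away from it. Farther out are dmoA at 982906 to 984345 and nahG at 985748 to 987004, both on the plus strand, and ANS at 987061 to 988161 on the minus strand. The ends of nahG and ANS face each other across 56 bases, and those of YKJ6_SCHPO and the sulfonate dioxygenase row HPODL_05061 across 19 bases. Whether the counting used strand is not stated in the labels or headers, so reads from overlapping ends of such neighbours cannot be told apart. One row, a transporter named SEO1, lies beyond ANS, and its end at 990573 is the last annotated position of the chromosome in the table.

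Values are the authors' FPKM (fragments relative to the length of the transcript and to all those mapped in the library), which can be compared between genes because they are per length. Depth is unknown. Of the 5448 rows, 5342 had a mean of at least 1 FPKM and were compared, among them all 7 cluster oxygenases. Their median level was 64.0 FPKM in the mutant in B medium, 64.5 in the mutant with cysteine, 78.0 in the wild type in B medium and 68.5 in the wild type with cysteine. The row zip1, taken as MET4 after its values were seen and named for the Met4-like factor of fission yeast, and its neighbour HPODL_05198 were listed at 0 in both mutant libraries and were above 0 in both wild-type ones, so strain differences cannot be assigned to zip1 alone.

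In the wild type, every one of the 7 genes stood far higher in B medium than with cysteine. In the mutant the levels in both media lay within 2.15-fold of each other, and between those of the wild type for 6 of the 7. Summed over the 7, FPKM came to 321 in the mutant in B medium, 247 in the mutant with cysteine, 5888 in the wild type in B medium and 104 in the wild type with cysteine. Over all rows the sums were 1.41e+06, 1.33e+06, 3.22e+06 and 2.31e+06 FPKM in the same order. The size of the gap between strains in these sums therefore depends on the scaling. In cultures measured in bulk, fewer expressing cells and less RNA per cell cannot be told apart.

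**Figure D1:**
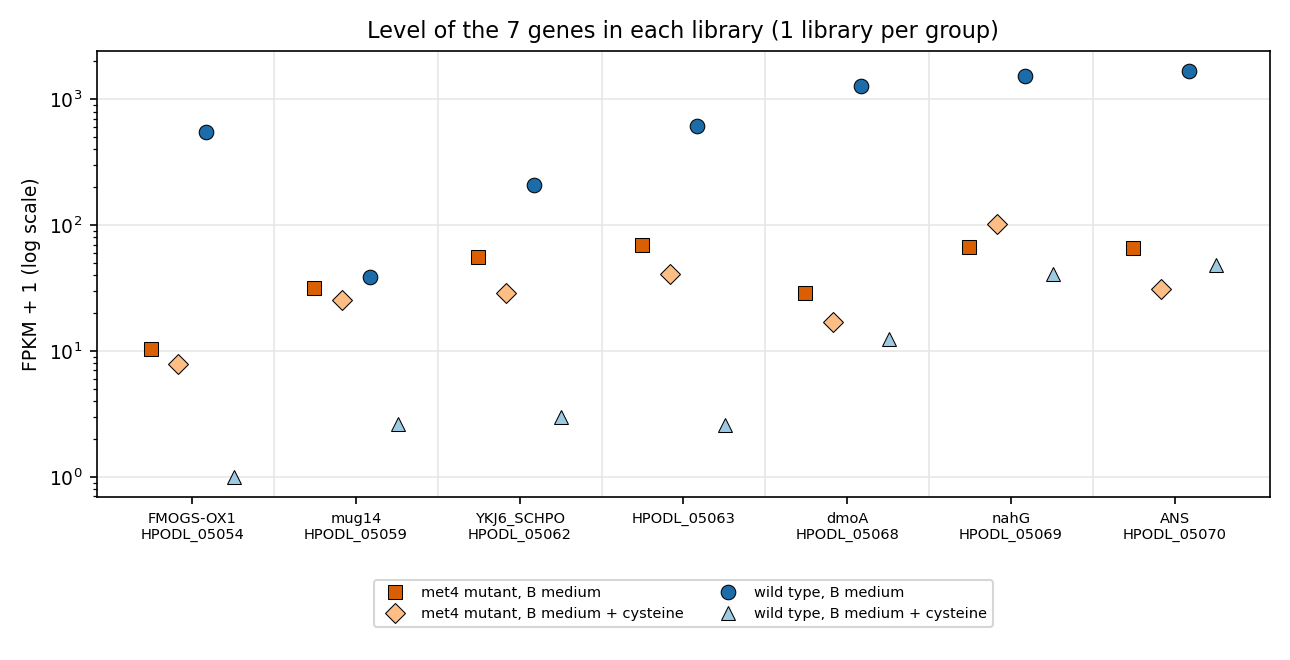
Level of each of the 7 genes as FPKM + 1 on a log axis, with 1 point for each of the 4 libraries and the genes in map order. The wild type in B medium gives the highest point for all 7 genes, while the wild type with cysteine gives the lowest for 6 and the mutant with cysteine for ANS.

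FMO GS-OX1, the flavin-containing monooxygenase, had 9.45 FPKM in the mutant in B medium, 6.89 in the mutant with cysteine and 547 in the wild type in B medium, and it was listed at 0 in the wild type with cysteine. It was the lowest of the 7 in both mutant libraries, so the gene with the largest wild-type difference was also the one with the least transcript in the mutant. No fold is given for a row listed at 0.

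The dimethyl-sulfide monooxygenase row dmoA had 27.9 FPKM in the mutant in B medium, 16.0 in the mutant with cysteine, 1267 in the wild type in B medium and 11.4 in the wild type with cysteine. The first 2 and the last of these values lie close together and the wild type in B medium stands apart, 112 times the wild-type value with cysteine. The salicylate hydroxylase row nahG had 65.5 FPKM in the mutant in B medium, 102 in the mutant with cysteine, 1539.5 in the wild type in B medium and 40.1 in the wild type with cysteine. It was the one member that the mutant had at a lower level in B medium than with cysteine.

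ANS, the dioxygenase row, had 65.0 FPKM in the mutant in B medium, 30.3 in the mutant with cysteine, 1677 in the wild type in B medium and 47.2 in the wild type with cysteine. This made it the most abundant of the 7 in both wild-type libraries. It was also the one member lower in the mutant than in the wild type when cysteine was present.

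The oxidoreductase row YKJ6_SCHPO had 54.4 FPKM in the mutant in B medium, 27.7 in the mutant with cysteine, 209 in the wild type in B medium and 1.97 in the wild type with cysteine. HPODL_05063, across the shared upstream gap from it, had 68.4 FPKM in the mutant in B medium, 40.3 in the mutant with cysteine, 611 in the wild type in B medium and 1.56 in the wild type with cysteine. Both genes of this head-to-head pair put the libraries in the same order, with the wild type at either extreme and the mutant between. FMO GS-OX1, dmoA and mug14 had this order too, so it is not particular to the pair.

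The row mug14 had 30.5 FPKM in the mutant in B medium, 24.6 in the mutant with cysteine, 37.5 in the wild type in B medium and 1.62 in the wild type with cysteine. Here 3 libraries were alike and the wild type with cysteine was the low one, a pattern that no other member had. Its level in wild-type B medium was the lowest of the 7, below the median of all compared genes.

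Ranks within each library do not change with scaling between libraries. The cluster oxygenases lay between percentiles 4.97 and 52.2 of the compared genes in the mutant in B medium (median 44.7) and between 3.44 and 63.3 in the mutant with cysteine (median 24.4). In the wild type they lay between 26.3 and 95.2 in B medium (median 89.9) and between 0.131 and 39.0 with cysteine (median 1.79). For mug14 the percentiles in B medium were alike in both strains, 26.4 in the mutant and 26.3 in the wild type. By level in wild-type B medium the order was ANS, nahG, dmoA, HPODL_05063, FMO GS-OX1, YKJ6_SCHPO and mug14. With no replicates, neighbours in that order cannot be said to differ, and ANS and nahG are close in value. The highest member had 7.24 times the FPKM of the lowest in the mutant in B medium and 44.7 times in the wild type in B medium.

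The comparison of media asks how much each gene responds to the absence of cysteine in either strain. On the log2(FPKM + 1) scale, which understates the change of low genes, ANS had a difference of 1.08 in the mutant, with 6 genes between -0.62 (nahG) and 0.95 (YKJ6_SCHPO). The values in the mutant were 0.41 for FMO GS-OX1, 0.30 for mug14, 0.75 for HPODL_05063 and 0.76 for dmoA. Thus 1 of 7 was higher by 2-fold or more in mutant B medium and 0 lower by 2-fold or more, beside 13.3% and 12.1% of all compared genes. The median of the 7 was 0.75, beside 0.04 over all compared genes. ANS and YKJ6_SCHPO sit near the 2-fold line, and scaling moved the count to between 0 and 2 of 7.

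In the wild type the same difference was 9.10 for FMO GS-OX1, 7.90 for HPODL_05063, 6.68 for dmoA and 6.14 for YKJ6_SCHPO. It was 5.23 for nahG, 5.12 for ANS and 3.88 for mug14. All 7 were higher by 2-fold or more in wild-type B medium and 0 lower by 2-fold or more, beside 23.6% and 13.0% of all compared genes. With TPM scaling (each library brought to the same sum), the 2 shares of all genes were 14.1% and 21.1%, and the 7 genes stayed at 2.89 or more. From the top of 5342 differences, FMO GS-OX1 took place 10 and mug14 place 83. Because the genes were chosen with this response known, their share is not a result about them.

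**Figure D2:**
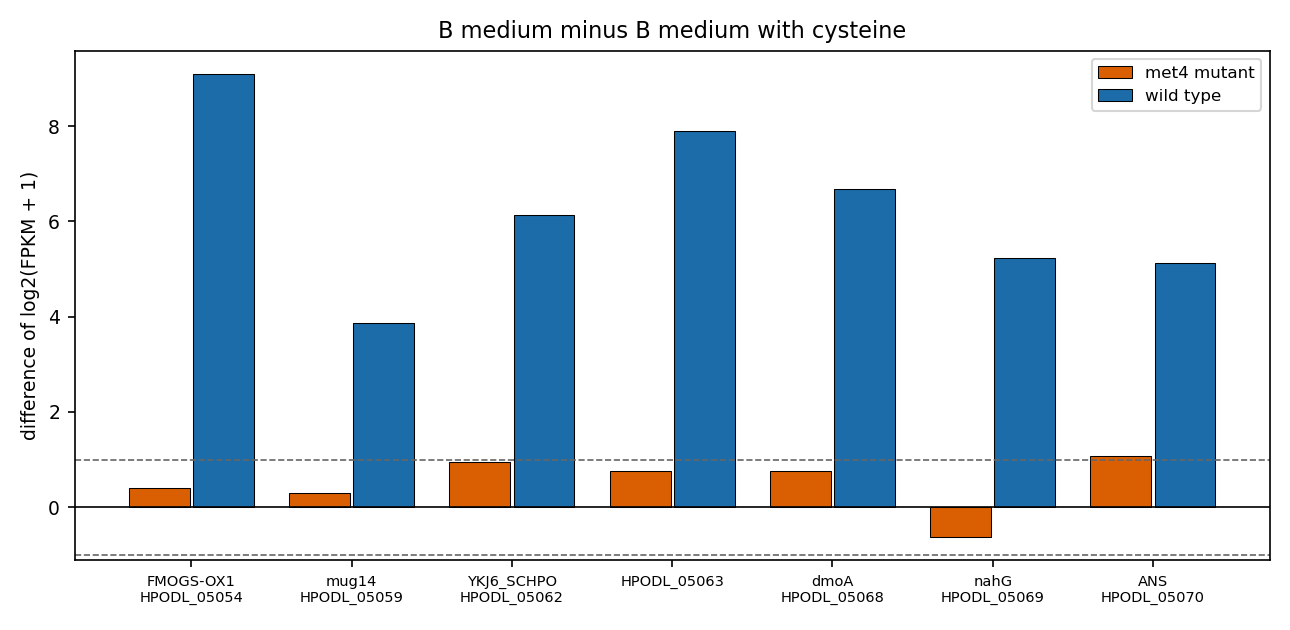
Difference of log2(FPKM + 1) between B medium and B medium with cysteine for each of the 7 genes, with bars for the met4 mutant and the wild type (1 library per group, no error bars) and dashed lines at a 2-fold difference. Mutant bars run from -0.62 to 1.08 and wild-type bars from 3.88 to 9.10, so the ranges of the 2 strains are apart.

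The mutant's response was smaller than the wild type's for every member. The difference of the responses was -8.69 for FMO GS-OX1, -7.15 for HPODL_05063, -5.92 for dmoA and -5.85 for nahG. It was -5.19 for YKJ6_SCHPO, -4.05 for ANS and -3.57 for mug14. All 7 passed 2-fold in this direction, beside 22.2% of all compared genes, and 0 passed it the other way, beside 11.2% (12.6% and 18.6% with TPM scaling). Over the 9 settings tried, the median of the 7 stayed between -5.39 and -5.89.

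The comparison of strains asks which medium carries that difference, and for most members both did, in opposite directions. In B medium, FMO GS-OX1 in the mutant reached 1.73% of its wild-type FPKM, dmoA 2.20%, ANS 3.88% and nahG 4.26%. HPODL_05063 reached 11.2%, YKJ6_SCHPO 26.0% and mug14 81.4%. On the log2 scale, mutant minus wild type in B medium came to -5.71 for FMO GS-OX1, -5.46 for dmoA, -4.67 for ANS and -4.53 for nahG. They were -3.14 for HPODL_05063, -1.92 for YKJ6_SCHPO and -0.29 for mug14.

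In B medium 6 of 7 were lower by 2-fold or more in the mutant, beside 24.9% of all compared genes, and 0 higher by 2-fold or more, beside 10.5% (6.29% and 44.3% with TPM scaling). All 7 differences were below 0 in FPKM as deposited, but mug14 stood above 0 with upper-quartile (0.01) and TPM (0.84) scaling. YKJ6_SCHPO came within 2-fold with TPM scaling, at -0.73. The 4 largest reductions among the 7 were those of FMO GS-OX1, dmoA, ANS and nahG, the 4 members whose products name an oxygenase or hydroxylase. This was seen after the values were known. Among the other rows of the stretch, those with such a product stood at -4.99 (HPODL_05052), -3.97 (HPODL_05061) and -2.21 (HPODL_05066). The transporter rows HPODL_05071 and HPODL_05053 stood at -6.07 and -5.24.

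With cysteine, 5 of 7 were higher by 2-fold or more in the mutant than in the wild type, beside 6.85% of all compared genes, and 0 lower by 2-fold or more, beside 7.41% (27.7% and 2.21% with TPM scaling). HPODL_05063 had 25.8 times its wild-type FPKM, mug14 15.1 times and YKJ6_SCHPO 14.0 times, log2 differences of 4.01, 3.29 and 3.27. FMO GS-OX1, listed at 0 in the wild type, stood at 2.98, a value set in part by the pseudocount. With pseudocounts of 5 and 0.1 FPKM it was 1.25 and 6.13, and the median of the 7, 2.98 as reported, was 1.25 and 3.74. The differences were 1.32 for nahG, 0.46 for dmoA and -0.62 for ANS, and with TPM scaling ANS stood at 0.15.

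**Figure D3:**
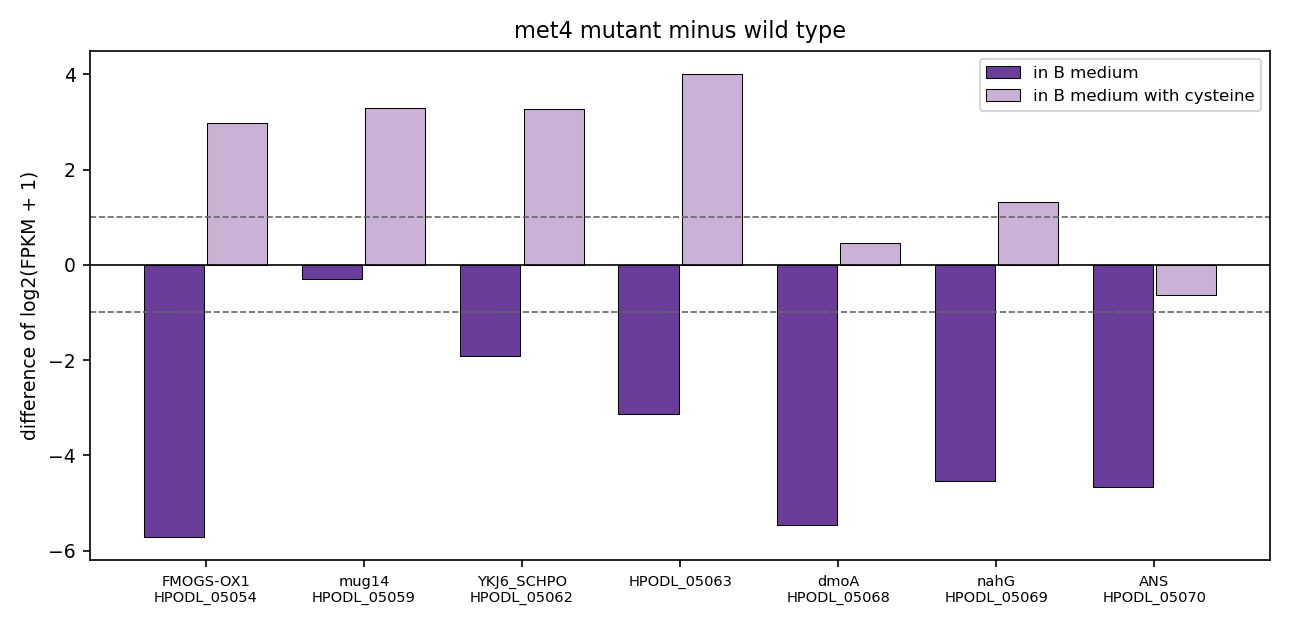
Difference of log2(FPKM + 1) between the met4 mutant and the wild type for each of the 7 genes, with bars for B medium and for B medium with cysteine (1 library per group, no error bars) and dashed lines at a 2-fold difference. All 7 bars for B medium point down, from -0.29 to -5.71, and 6 of 7 bars with cysteine point up, with ANS at -0.62, though mug14 in B medium turns with upper-quartile and TPM scaling and ANS with cysteine with TPM scaling.

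Lower in the mutant in B medium and higher in it with cysteine, each by at least 2-fold, were 4 of 7 cluster oxygenases (FMO GS-OX1, YKJ6_SCHPO, HPODL_05063 and nahG), beside 1.31% of all compared genes. The 4 members under 5 FPKM in the wild type with cysteine were all higher by 2-fold or more in the mutant with cysteine, with a median difference of 3.28. Among all 195 compared rows under that level, 107 (54.9%) were, with a median of 1.12. The values of the wild type with cysteine come from a single library, whose part in this pattern was not tested.

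The members on either side of the cysteine synthase row HPODL_05065, a division chosen after the values were seen, differed in range in the wild-type libraries and overlapped in the mutant ones. In the mutant in B medium the levels were 9.45 to 68.4 FPKM for the 4 on its left (FMO GS-OX1, mug14, YKJ6_SCHPO and HPODL_05063) and 27.9 to 65.5 FPKM for the 3 on its right (dmoA, nahG and ANS). In the mutant with cysteine they were 6.89 to 40.3 FPKM on the left and 16.0 to 102 on the right. In wild-type B medium the left members had 37.5 to 611 FPKM and the right members 1267 to 1677. In the wild type with cysteine the left members had 0 to 1.97 FPKM and the right members 11.4 to 47.2. With cysteine, mutant minus wild type was 2.98 to 4.01 on the log2 scale on the left and -0.62 to 1.32 on the right, and with a pseudocount of 5 FPKM the lowest left value (FMO GS-OX1, 1.25) and the highest right value (nahG, 1.24) nearly met. The strain differences in B medium, both medium responses and their difference overlapped between the sides. The other rows of the stretch were not divided in this way. In wild-type B medium HPODL_05052 on the left had 9095 FPKM and HPODL_05067 on the right 338. In the wild type with cysteine HPODL_05064 on the left had 55.3 FPKM and HPODL_05071 on the right 1.62.

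The 14 neighbours give the setting in which the cluster oxygenases lie. Against medians of 0.75 in the mutant and 6.14 in the wild type for the medium response of the 7 genes, those of the neighbours were 0.23 and 2.77. In mutant B medium 5 neighbours were higher and 2 lower by 2-fold or more, beside 13.3% and 12.1% of all compared genes. In wild-type B medium 11 were higher and 1 lower, beside 23.6% and 13.0%. Between strains, 9 were lower by 2-fold or more in the mutant in B medium, beside 24.9%. With cysteine 7 were higher by 2-fold or more in the mutant, beside 6.85%. In the difference of the medium responses 12 were lower by 2-fold or more, beside 22.2%. A further 3 neighbours have products that name an oxygenase and are not among the 7. These are 2 sulfonate dioxygenase rows, HPODL_05052 and HPODL_05061, which stood at 12.01 and 10.24 in the wild type, and a 6-hydroxynicotinate 3-monooxygenase row, HPODL_05066. The last had 130.5 FPKM in the mutant in B medium, 153 in the mutant with cysteine, 609 in the wild type in B medium and 132 in the wild type with cysteine.

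Transporter rows beside the oxygenases also had large wild-type responses. The SEO1 row HPODL_05067, which diverges from dmoA across 387 bases, had responses of 1.50 in the mutant and 6.23 in the wild type, and the SEO1 row HPODL_05071 beyond ANS 0.60 in the mutant and 8.32 in the wild type. Both share a name, but their sequence similarity was not measured, so whether reads were split between them is unknown. The transporter row YIQ6_YEAST (HPODL_05060) stood at -0.22 in the mutant and 4.79 in the wild type, and liz1 (HPODL_05053), beside FMO GS-OX1, at 1.09 in the mutant and 9.33 in the wild type. An alcohol dehydrogenase-like row, YKK1_SCHPO (HPODL_05064), had 1.71 in the mutant and 3.35 in the wild type.

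Other rows of the stretch differed less or the other way. Between FMO GS-OX1 and mug14, bglI (HPODL_05055, a probable beta-glucosidase) stood at 1.26 in the wild type, MSMEG_3995 (HPODL_05058, a putative hydrolase) at 1.45 and HPODL_05141 at 1.48. The other 2 rows there stayed within 2-fold in the wild type. The cysteine synthase row cysB (HPODL_05065), between HPODL_05063 and dmoA, was lower by 2-fold or more in B medium in both strains, at -1.12 in the mutant and -1.33 in the wild type. The high responses of the 7 genes did not run through every row between them.

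**Figure D4:**
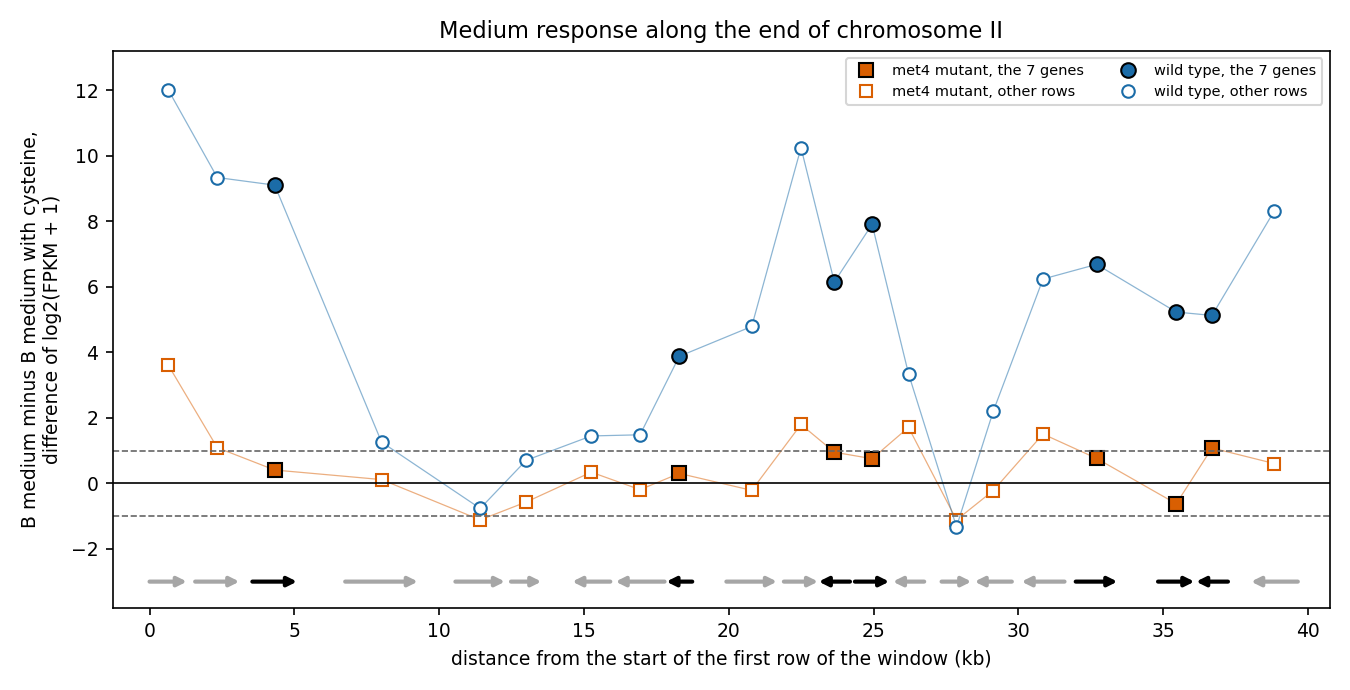
Medium response (B medium minus B medium with cysteine, difference of log2(FPKM + 1)) of the 21 rows at the end of chromosome II against distance in kb from the start of the first row, with squares for the met4 mutant, circles for the wild type, filled symbols for the 7 genes, and arrows for the position and strand of each row (black for the 7 genes). Wild-type points of the 7 genes lie between 3.88 and 9.10, and those of the other rows between -1.33 (cysB) and 12.01.

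The row just before the chosen position shared the high wild-type response of the members, but not their order of libraries. The first member inside, FMO GS-OX1, starts at 954478. The last row before position 950000, HPODL_05051 (start 949375, no product), had 46.8 FPKM in the mutant in B medium, 13.7 in the mutant with cysteine, 28.2 in the wild type in B medium and 1.07 in the wild type with cysteine. Among the 10 rows before position 950000, HPODL_05051 was the 1 row higher by 2-fold or more in wild-type B medium (3.82), and the median was 0.19.

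Windows of the same length, 40573 bases, were laid on all chromosome ends. At the right end of chromosome II, 18 of 21 rows (85.7%) were higher by 2-fold or more in wild-type B medium and the median was 5.12. At the other 13 ends this share ran from 7.41% to 61.5%, with a median of 30.0%, and the medians of the rows from -0.55 to 1.27. The window was placed on the cluster because of its response, so its place at the top of the 14 is a description.

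**Figure D5:**
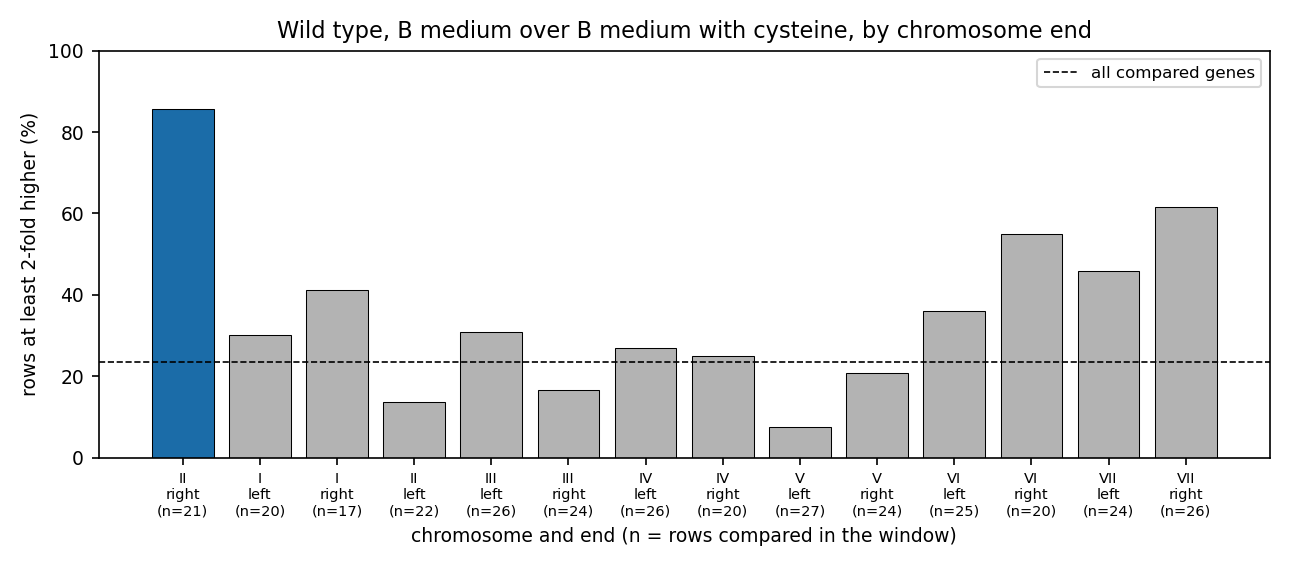
Percent of rows higher by 2-fold or more in B medium than in B medium with cysteine in the wild type, in windows of 40573 bases at the 14 chromosome ends, with the number of rows compared under each bar and a dashed line at the share of all compared genes, 23.6%. The right end of chromosome II stands at 85.7%, and the other bars run from 7.41% to 61.5%.

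Oxygenases elsewhere differed in both directions. Outside the stretch, 34 rows have a product or name that holds oxygenase or hydroxylase. Of these, 7 were higher and 6 lower by 2-fold or more in mutant B medium (median 0.12), beside 13.3% and 12.1% of all genes. In wild-type B medium 14 were higher and 4 lower (median 0.34), beside 23.6% and 13.0%. With the cluster neighbours counted in, the highest were 4 sulfonate dioxygenase rows, HPODL_05052, HPODL_01978 (10.55), HPODL_05061 and JLP1 at HPODL_00207 (9.44). The lowest were SPCC576.01c (HPODL_02648, a putative dioxygenase, -3.72), the JLP1 row HPODL_00875 (-2.82), and the sphingolipid hydroxylases SCS7 (-2.03) and SUR2 (-1.62). FMO GS-OX5 (HPODL_01981), a row named for the same plant family as FMO GS-OX1, had 214 FPKM in the mutant in B medium, 104 in the mutant with cysteine, 309 in the wild type in B medium and 70.0 in the wild type with cysteine. It was named after its values were seen.

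Set beside the 5 sulfonate dioxygenase rows, the cluster oxygenases had a lower median response in the mutant, 0.75 for the 7 genes and 1.80 for the dioxygenases. It was also lower in the wild type, 6.14 for the 7 genes and 10.24 for the dioxygenases. The median difference of the responses was -5.85 for the 7 genes and -8.35 for the dioxygenases, of which 1 (HPODL_00875) went the other way, at 3.62. Higher in B medium by 2-fold or more in both strains were 1 of the 7 cluster oxygenases (ANS) and 4 of the 5 sulfonate dioxygenase rows, beside 6.65% of all compared genes. The other 6 cluster oxygenases passed 2-fold in the wild type and not in the mutant, beside 16.9% of all compared genes. Among the 10 sulfate assimilation genes, 4 were higher and 3 lower by 2-fold or more in mutant B medium (median 0.26). In wild-type B medium 4 were higher and 0 lower (median 0.82). The shares of all compared genes were 13.3% and 12.1% in the mutant and 23.6% and 13.0% in the wild type. With cysteine, 5 of the 7 cluster oxygenases and 4 of the 5 sulfonate dioxygenase rows were higher by 2-fold or more in the mutant. So were 7 of the 14 neighbours, which include the sulfonate rows HPODL_05052 and HPODL_05061, beside 6.85% of all compared genes. Of the 10 sulfate assimilation genes 0 were (lowest -0.76, highest 0.49). In the wild type with cysteine these sulfate genes had 11.6 FPKM (SUL1) or more, and 4 of the 7 cluster oxygenases had under 5 FPKM. The members above that level, dmoA, ANS and nahG, stood at 0.46, -0.62 and 1.32 between strains with cysteine. None of these differences between lists was tested.

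The flavin supply genes were listed because 3 members are named for flavin enzymes. Of 7 such rows, 0 were higher and 1 lower by 2-fold or more in mutant B medium (median -0.43). The shares of all compared genes were 13.3% and 12.1%. In wild-type B medium 1 was higher and 2 lower, beside 23.6% and 13.0%. The wild-type median was -0.94, and it ran from -1.39 to -0.91 over the settings tried. FMN1 (HPODL_02072), the riboflavin kinase that makes FMN, stood at 0.97 in the mutant and 1.49 in the wild type. Riboflavin synthase RIB5 stood at 0.29 in the mutant and -1.46 in the wild type, RIB3 at -0.997 and -1.10, and RIB4 at -1.96 and 0.31. No row described as an FMN or flavin reductase was found by that wording. The name FAD1, of flavin nucleotide synthesis, was also searched for and no row carried it.

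Likeness was measured as the root mean square distance between profiles of log2(FPKM + 1) over the 4 libraries, each centred on its own mean. The members lay 0.69 (nahG) to 1.43 (mug14) from their own mean profile. The 5 closest of 5282 other rows with a mean of at least 5 FPKM were HPODL_05210 (0.22), niiA of nitrite reduction (0.28), HPODL_04881 (0.30), the dicarboxylic amino acid permease row DIP5 at HPODL_00008 (0.33) and YNR1 of nitrate reduction (0.34). None of these 5 lies in the cluster. In the wild type with cysteine, niiA, DIP5 and YNR1 had 1.69, 1.18 and 1.38 FPKM, so their distances depend in part on the pseudocount. HPODL_05210 and HPODL_04881 had 25.7 and 6.92 FPKM there. The sulfate permease SUL1 was the row nearest to dmoA (0.18), and the sulfate adenylyltransferase MET3 the row nearest to ANS (0.35).

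The other members had other nearest rows. The nearest to mug14 was the methylsterol monooxygenase row ERG25 at HPODL_02511 (0.14), with 531 FPKM in the mutant in B medium, 413 in the mutant with cysteine, 622 in the wild type in B medium and 52.7 in the wild type with cysteine. HPODL_05063 had its head-to-head partner YKJ6_SCHPO as its nearest (0.64), the 1 case in which a member was nearest to another. YKJ6_SCHPO itself was nearest to the glucose transporter row rco-3 (0.35), nahG to HPODL_02034 (0.26) and FMO GS-OX1 to ENSRNA049516044 (0.26).

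In the authors' deposited table, FMO GS-OX1 is the 1 member marked as different, in the pairings of the wild type with cysteine with the mutant in B medium and with the mutant with cysteine. Those pairings mark 13 and 57 of 5448 rows, or 0.239% and 1.05%. In the authors' deposited table no member is marked in either pairing with the wild type in B medium, which mark 13 (0.239%) and 11 (0.202%) rows. The table has no marks for the comparison of media within a strain.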

How the data were processed

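RNA extracted with hot phenol from 4 cultures was sequenced after Illumina library preparation, per the labels' protocols. The deposited FPKM values, 1 per gene and library, were made by the authors, whose processing notes list Cufflinks 2.1.1, Cuffdiff and TopHat without their roles. Neither labels nor headers state the genome build, annotation or strand setting. The authors' yes or no marks are at a threshold of 0.05, per the file headers. Positions are those of the table, and all 7 members matched the reference gene table (assembly Hansenula_2), as did the positions of 5372 of 5448 rows.

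Differences of log2(FPKM + 1) were taken without rescaling, over rows averaging at least 1 FPKM, and called at 2-fold. With 1 library per group there is no test. Medium and strain comparisons share libraries pairwise. Percentiles count ties at their midpoint. The neighbour, oxygenase, sulfonate, sulfate and flavin lists came from position, product words or gene names. Named were all members, neighbours past 2-fold in the wild type that average at least 5 FPKM, up to 4 per sulfur or flavin list, the 4 highest and lowest other oxygenases, and the 5 nearest profiles. Members and lists were chosen with earlier results of these data known. Alternatives were pseudocounts of 0.1 and 5, no filter or a mean of 10 FPKM, and median-of-ratios, upper-quartile, TPM and long-gene (at least 600 bases) scaling. Added after the data were seen were backgrounds of genes of 894 to 1542 bases and of rows under 5 FPKM. The calculation was tested on simulated data (Python 3.11.15, numpy 2.4.6, pandas 2.3.3, matplotlib 3.10.9). Planned checks of upstream motifs and protein similarity were not run, and no sequences were used here.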

Additional observations from a re-analysis of the deposited data

Results flagged for a closer look

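Strain differences of opposite sign in the 2 media were found for 6 of the 7 cluster oxygenases, lower in the mutant in B medium and higher in it with cysteine, beside 1172 of 5342 compared rows (21.9%) and 10 of the 14 neighbours (71.4%) with these signs. The difference between the 2 strain differences, equal to the mutant's medium response minus the wild type's, was -8.69 for FMO GS-OX1, -7.15 for HPODL_05063, -5.92 for dmoA, -5.85 for nahG, -5.19 for YKJ6_SCHPO and -3.57 for mug14. With 1 library per group none of these was tested, and for mug14 the sign in B medium turned with upper-quartile and TPM scaling. For nahG the medium responses also had opposite signs, -0.62 in the mutant and 5.23 in the wild type, which again differ by -5.85 and were not tested. The lower value of nahG in mutant B medium, 65.5 FPKM, against 102 with cysteine, is within 2-fold.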

How the results depend on the processing

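Of 280 recalculated differences of single cluster oxygenases (7 genes, 5 comparisons, 8 alternatives), 274 stayed on the same side of 2-fold, 3 came within it and 3 passed it, and none past 2-fold changed sign. The count of cluster oxygenases higher by 2-fold or more in mutant B medium, 1 as reported, was 0 with a pseudocount of 5 FPKM, 0 with TPM scaling, 2 with upper-quartile scaling and 2 when scaled to the total of genes no shorter than 600 bases. Among the neighbours, TPM scaling gave 2 lower by 2-fold or more in wild-type B medium in place of 1, and 3 higher by 2-fold or more in the mutant in B medium in place of 0. The other counts of cluster oxygenases and neighbours stayed within 1.5 times of those reported, and the medians of the cluster oxygenases kept their sign and their side of 2-fold. The median with the widest relative range among those past 2-fold was that between strains with cysteine, 1.25 with a pseudocount of 5 FPKM and 3.74 with 0.1, against 2.98 as reported. TPM scaling moved the median of all compared genes by -0.08 in the mutant's medium response, -0.44 in the wild type's, 1.14 and 0.76 between strains in B medium and with cysteine, and 0.37 in the difference of responses. Median-of-ratios scaling moved it by -0.05, -0.19, 0.25, 0.10 and 0.15 in the same order, upper-quartile scaling by 0.05, -0.06, 0.30, 0.19 and 0.11, and long-gene scaling by 0.10, -0.08, 0.23, 0.05 and 0.17. Among genes as long as the 7, 894 to 1542 bases, 23.2% were higher by 2-fold or more in wild-type B medium, and 8.35% higher by 2-fold or more and 2.73% lower by 2-fold or more in the mutant with cysteine. The value of FMO GS-OX1 in the wild type depends most on the pseudocount, because the row is listed at 0 with cysteine. No paired analysis was possible because each group held 1 library. FPKM carries no depth, so the counting error of low values such as 1.56 FPKM is unknown.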

Other observations

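In the windows of 40573 bases, the right ends of chromosomes VII and VI came next after that of chromosome II. On chromosome VII 16 of 26 rows (61.5%), and on chromosome VI 11 of 20 (55.0%), were higher by 2-fold or more in wild-type B medium than with cysteine, with medians of 1.27 and 1.10. The left end of chromosome V had the lowest share, 2 of 27 rows (7.41%). These ends were picked out after their values were seen, and no test was made.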
